A study of Homo sapiens with 6 samples.

Results

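The 10 genes described here, PRRX1, SNAI2, TWIST1, ZEB1, ZEB2, RUNX1, RUNX2, NOTCH2, MEOX2 and TBX18, are regulators that mark the mesenchymal state of neuroblastoma, and what was measured is how open the chromatin at and around them was. They are 10 of 20007 protein-coding genes in the GENCODE release 44 annotation of hg38. Every peak of the 6 deposited peak lists that overlapped the body of one of these genes, or lay within 50 kb of either of its ends, was assigned to it. Peaks of different libraries that shared at least 1 base were joined into 1 region, which gave 297 regions for the 10 genes out of 373067 in the whole series.

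The cells were SK-N-AS, a line from a MYCN-nonamplified neuroblastoma. SK-N-AS tumors were grown in mice that received indisulam, an aryl sulfonamide that leads to degradation of the splicing factor RBM39, or vehicle. Naïve cells were cultured from a tumor of the vehicle arm, and R1 and R2 cells from tumors that had relapsed again and were harvested during a later cycle of indisulam. All 3 cultures were grown from the adherent cells of dissociated tumors, none was treated with drug in culture, and each was profiled by ATAC-seq in 2 libraries of 100000 cells. The labels do not say whether the 2 libraries of a culture are separate cultures or repeat preparations, so the spread between them may be technical. R1 and R2 are 1 culture each, and a difference between a resistant and the naïve culture cannot be told apart from a difference between 2 tumors.

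Neuroblastoma cells occur in an adrenergic state, held by factors such as HAND2 and GATA3, and in a mesenchymal state, which resembles neural crest-derived mesenchyme and is known for motility and for lower sensitivity to chemotherapy. SNAI2, TWIST1, ZEB1 and ZEB2 are the zinc finger and basic helix-loop-helix factors of the epithelial to mesenchymal transition. They bind E-boxes and repress epithelial genes such as CDH1. PRRX1 and MEOX2 are homeobox factors of mesenchyme, TBX18 is a T-box factor of mesenchymal progenitors, and RUNX1 and RUNX2 are runt domain factors that bind DNA together with CBFB. NOTCH2 is a receptor whose cleaved intracellular part acts as a coactivator with RBPJ, so it belongs to the mesenchymal program without binding DNA itself.

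The sequences of 6 sites show where the values below were read. Each is the 101 bp centred on a peak summit, written 5′ to 3′ on the plus strand of hg38 and read from that genome. Letters in capitals match one of the motifs searched, other than the plain E-box. The first is the TBX18 site, which had the best-ranked promoter peak of the 10 genes in all 4 resistant libraries, at chr6:84764671-84764771, just upstream of the annotated gene. The second is the RUNX1 promoter region at chr21:34888712-34888812, in an intron of the gene. The third, at chr21:35428618-35428718, lies in another intron of RUNX1 and carried a strong peak in R1 but in no other culture. The next are the promoter sites of MEOX2, at chr7:15686758-15686858, and of ZEB1, at chr10:31319442-31319542, which did not have a peak in every library. The last is the PRRX1 site, chr1:170664377-170664477, at the end of a coding exon.
TBX18 promoter: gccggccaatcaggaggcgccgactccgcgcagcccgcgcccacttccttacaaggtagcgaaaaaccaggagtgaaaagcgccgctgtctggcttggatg
RUNX1 promoter: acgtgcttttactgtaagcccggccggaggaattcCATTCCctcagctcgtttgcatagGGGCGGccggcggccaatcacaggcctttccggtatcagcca
RUNX1 intronic site: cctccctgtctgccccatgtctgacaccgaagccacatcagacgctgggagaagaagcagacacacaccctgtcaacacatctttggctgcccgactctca
MEOX2 promoter: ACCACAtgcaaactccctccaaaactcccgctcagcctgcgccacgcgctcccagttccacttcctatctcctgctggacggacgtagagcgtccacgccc
ZEB1 promoter: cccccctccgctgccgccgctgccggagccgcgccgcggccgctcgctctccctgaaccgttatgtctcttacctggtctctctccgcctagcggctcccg
PRRX1 promoter: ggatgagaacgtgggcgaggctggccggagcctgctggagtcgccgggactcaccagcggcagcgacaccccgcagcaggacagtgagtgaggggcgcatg

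The RUNX1 promoter site held the letters GGAATG, the TEAD core, and GGGCGG, an SP/KLF box, once each, and the MEOX2 site held TGTGGT, the RUNX core, once on the minus strand. The TBX18, ZEB1 and PRRX1 sites and the intronic RUNX1 site held none of the capitalised motifs.

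The 6 lists differed greatly in depth, and this sets how the values can be read. They held between 67558 peaks, in the first R2 library, and 340558, in the first R1 library. The background rate of tags, recovered from the deposited fold and p-value of the peaks, was 7.94 and 5.43 in R1, 2.29 and 1.35 in the naïve libraries and 0.85 and 0.899 in R2. The weakest peak that could be called held 18 and 14 tags in R1, 9 and 7 in the naïve libraries and 6 in both R2 libraries. Over the background rate this was 2.27 and 2.58 in R1, 3.93 and 5.18 in the naïve libraries and 7.06 and 6.68 in R2. Called peaks of R2 could therefore not stand lower than that. A peak of R1 that is absent from R2 may therefore lie below what R2 could show. For several promoters and an intronic RUNX1 site, tags scaled by background rate are given below, and for other regions they are not given. Such a value takes no account of the spread between libraries, so it cannot decide whether a peak would have been called. At ZEB1, the first R2 library scaled to 8.46 tags in the second, where 6 could be called and no peak was. Because depth differed, comparisons were made on tags divided by the background rate of the library. They were also made on percentile ranks, where 100 is the strongest, among the 24147 regions with a peak in all 6 libraries. With 4 resistant and 2 naïve libraries an exact permutation test cannot give a p below 0.0667 one-sided or 0.133 two-sided, and with 2 against 2 none below 0.167 or 0.333, so no p-values are given. A region was called higher or lower where the ranks of the groups did not overlap, and each count of such calls is set beside the share of all regions called in the same way.

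Most regions around the 10 genes were found in R1 alone, the deepest libraries. Of the 297 regions, 225 (75.8%) had a peak in R1 but in neither naïve nor R2 cells, against 67.1% of all regions in the series, and 146 were found in 1 library. Only 9 regions, or 3.03%, had a peak in all 6 libraries, against 6.47% of all regions. RUNX1, whose window is the longest at 1317 kb, held 161 of the regions, SNAI2 held 25, PRRX1 23, TWIST1 19, NOTCH2 18, RUNX2 15, ZEB2 12, MEOX2 11, TBX18 8 and ZEB1 5. Both shares therefore rest mainly on RUNX1, where 133 regions were found in R1 alone and 2 had a peak in all 6 libraries. At the other genes, regions found in R1 alone ran from 3 of 15 at RUNX2 to 17 of 18 at NOTCH2. In all, 246 regions were distal, meaning more than 1000 bp from every annotated start of any gene. Some windows reach into neighbouring genes, namely HDAC9 and FERD3L beside TWIST1, GTDC1 beside ZEB2, SETD4 beside RUNX1, SUPT3H beside RUNX2, ADAM30 beside NOTCH2 and AGMO beside MEOX2.

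Promoters, taken as peaks within 1000 bp of any annotated start of the gene, were open in all 6 libraries at 4 of the 10 genes, PRRX1, TWIST1, RUNX1 and TBX18. This was 40%, and the share of all protein-coding genes was 59.6%. At TWIST1, RUNX1 and TBX18 the promoter peak also ranked 20000 or better by p in every library, 3 of 10 genes against 36.8% of protein-coding genes. By library, 8 and 7 of the promoters had a peak for naïve cells, 10 and 10 for R1, and 6 and 7 for R2. Of all protein-coding genes, 74.9 and 71.5% had one for naïve cells, 87.1 and 85.6% for R1, and 65.6 and 66.6% for R2. The share of the 10 genes was thus above that of all genes in 4 libraries and below it in the second naïve and first R2 libraries. The genes without a promoter peak in some library were SNAI2, ZEB1, ZEB2, RUNX2, NOTCH2 and MEOX2.

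**Figure D1:**
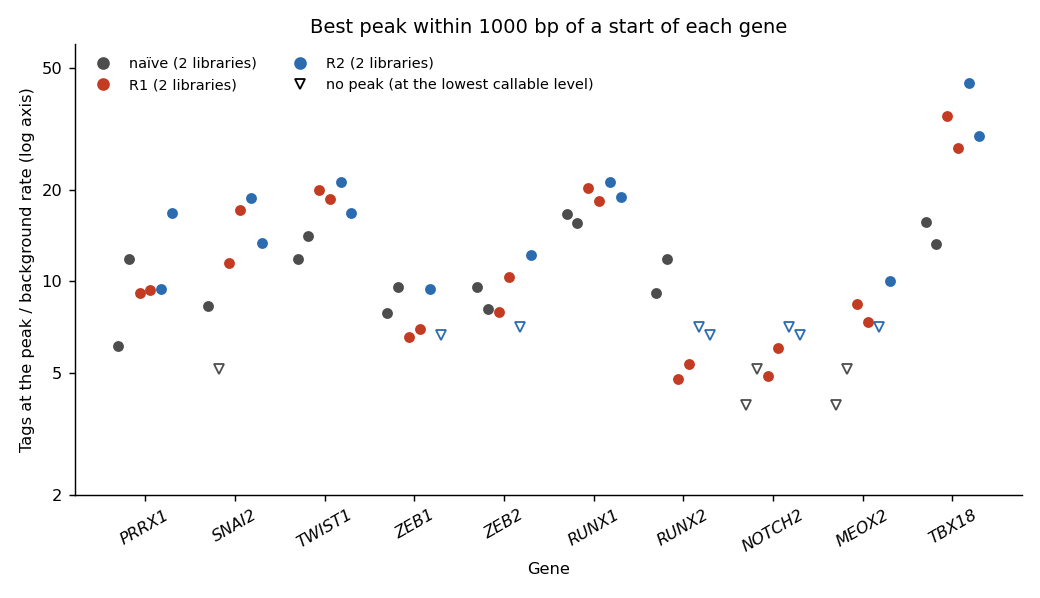
Tags at the best promoter peak of each of the 10 genes divided by the background rate of the library (log axis), 1 point per library, with naïve in grey, R1 in red and R2 in blue. Open triangles mark libraries without a promoter peak and stand at the lowest level callable in that library. The 4 resistant libraries of TBX18 lie between 27.4 and 44.7, above both naïve libraries at 15.7 and 13.3.

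By strength, the promoters of the 10 genes had lower medians than those of all genes. Counting a gene without a promoter peak as 0, the median promoter percentile within the list of each library was 79.4 and 72.4 for the 10 genes for naïve cells, 91.9 and 92.1 for R1, and 15.6 and 64.8 for R2. All protein-coding genes had medians of 86.1 and 80.7, 96.3 and 95.4, and 68.7 and 69.1, which were higher in all 6 libraries. The low median of the first R2 library comes with 4 of the 10 genes that had no promoter peak there and with PRRX1 and ZEB1, which each stood at percentile 15.6.

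Among the factors of the epithelial to mesenchymal transition, TWIST1, a basic helix-loop-helix factor, had the most open promoter (chr7:19020991-19117636, minus strand). Its best promoter peak held 27 and 19 tags for naïve cells, 159 and 101 for R1, and 18 and 15 for R2. Over the background rate these were 11.8 and 14.1, 20 and 18.6, and 21.2 and 16.7. All 4 resistant libraries lay above both naïve ones on this scale. On the log2 scale the TWIST1 region was 0.58 higher in R1 and 0.54 higher in R2, while the median over all regions with a peak in every library was itself 0.06 higher in R1 and 0.33 higher in R2. The ranks of the region, which spans the start, were 51.3 and 54.4 for naïve cells (mean 52.8 ± 2.14, SD, n = 2), 73.0 and 70.3 for R1 and 71.0 and 57.3 for R2 (mean of the 4 resistant libraries 67.9 ± 7.13, SD, n = 4). The groups did not overlap, and the difference was 15.06 percentile points. An intronic region of TWIST1 (chr7:19107210-19109181), its best distal one, had 15 tags in the second naïve library, 84 and 64 in R1 and 11 in the second R2 library, and no peak in the first naïve and first R2 libraries.

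SNAI2 encodes SLUG, the zinc finger repressor of neural crest and mesenchymal cells (chr8:48917598-48921740, minus strand). Its promoter peak held 19 tags in the first naïve library and none in the second, 91 and 93 in R1, and 16 and 12 in R2. Over background these values were 8.31 for naïve cells, 11.5 and 17.1 for R1 and 18.8 and 13.4 for R2. From the first R1 library, scaled by background rate, 15.5 tags would stand at this site in the second naïve library, where 7 could be called. From the first naïve library it would be 11.2, so the 2 naïve libraries also differed by this measure. A region 1563 bp upstream of the SNAI2 start (chr8:48923303-48923822) had a peak in all 6 libraries, with 26 and 12 tags for naïve cells, 147 and 103 for R1, and 22 and 15 for R2. Its ranks were 48.2 and 12.9 for naïve cells (30.5 ± 24.9, SD, n = 2), 68.5 and 71.5 for R1, and 81.7 and 57.3 for R2 (69.8 ± 10.0, SD, n = 4). The naïve libraries lay well apart, but both below every resistant library. The difference of 39.22 percentile points was 20.42 without the second naïve library.

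ZEB1 and ZEB2, the E-box binding zinc finger homeobox repressors, had weaker promoters. ZEB1 (chr10:31318495-31529814, plus strand) had 18 and 13 tags for naïve cells, 52 and 38 for R1, 8 in the first R2 library and no peak in the second. Over background the R1 values of 6.55 and 6.99 lay below the naïve values of 7.87 and 9.62, and the R2 value was 9.41. Scaled to the second R2 library, where 6 tags could be called, the R1 peaks correspond to 5.89 and 6.29 tags, the naïve peaks to 7.07 and 8.66 and the first R2 peak to 8.46. ZEB1 had 5 regions in a window of 311 kb and no region with a peak in every library. Its distal region had a peak of 18 tags in the second R1 library alone.

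ZEB2 (chr2:144364364-144521057, minus strand) had promoter peaks of 22 and 11 tags for naïve cells, 63 and 56 for R1 and 11 in the second R2 library. Over background these were 9.62 and 8.14, 7.93 and 10.3, and 12.2, and the first R2 library had none. Scaled to that library, where 6 tags could be called, the other peaks correspond to between 6.74 and 10.4 tags. The highest of these came from the second R2 library. The naïve and R1 values overlapped. A ZEB2 intron region at chr2:144403841-144404343, its best distal one, had 82 and 47 tags in R1 and 9 in the second R2 library, with no naïve peak. The 2 regions of the ZEB2 window with a peak in every library were not at ZEB2 starts. One was the start of GTDC1, which ranked between 86.9 and 97.1 and was higher in R1 than in the naïve libraries. The other lay 2601 bp upstream of ZEB2 at the starts of the noncoding LINC01412 and LINC02993, with ranks between 11.7 and 44.1 and overlapping groups.

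PRRX1, a homeobox factor that is among the best known drivers of the mesenchymal state (chr1:170662728-170739421, plus strand), had 14 and 16 tags in its promoter region for naïve cells, 68 and 49 for R1, and 8 and 15 for R2. The best promoter peaks of R1, with 73 and 51 tags, lay at another start. Over background the region had 6.12 and 11.8, 8.56 and 9.02, and 9.41 and 16.7. The region with a peak in every library (chr1:170663847-170665510) ranked 3.63 and 38.8 for naïve cells, 21.4 and 24.2 for R1, and 5.36 and 57.3 for R2. The 2 libraries of naïve cells and of R2 were each farther apart than the group means, 21.2 and 27.1, so no difference was resolved. The difference of 5.85 points turned to -12.24 without the first naïve library, was 23.58 without the second, turned to -2.78 without the second R2 library and was 16.45 without the first. Its best distal region, in an intron (chr1:170707979-170708336), had 20 and 16 tags in the naïve libraries and 11 in the first R2 library, but no peak in R1, the deepest libraries.

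MEOX2, the other homeobox factor (chr7:15611212-15686683, minus strand), had no promoter peak in the naïve libraries. It had 67 and 40 tags in R1 and 9 in the second R2 library, which were 8.44, 7.36 and 10 times the background rate. Scaled from the first R1 library, 19.3 and 11.4 tags would stand in the naïve libraries, above their lowest callable 9 and 7, and 7.17 in the first R2 library, where 6 could be called. Scaled from the second R1 library, the values were 16.9 and 9.94 for naïve cells and 6.26 for the first R2 library. From the second R2 library they were 22.9 and 13.5 for naïve cells and 8.51 for the first R2 library. The 2 R2 libraries thus also differed by this measure. The best distal region of MEOX2 (chr7:15599589-15600618) had 12 tags in the first naïve library and 49 and 29 in R1.

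TBX18, the T-box factor (chr6:84687351-84764598, minus strand), had the strongest promoter peaks of the 10 genes in the resistant cells. It held 36 and 18 tags for naïve cells, 277 and 149 for R1, and 38 and 27 for R2. Over background these were 15.7 and 13.3, 34.9 and 27.4, and 44.7 and 30. On the log2 scale R1 was 1.09 and R2 1.34 above naïve cells, against the medians of 0.06 and 0.33 over all regions with a peak in every library. Its percentile rank was 72.4 and 49.8 for naïve cells (61.1 ± 16.0, SD, n = 2), 95.1 and 89.2 for R1 and 96.4 and 88.7 for R2 (92.4 ± 3.96, SD, n = 4). The groups did not overlap, and R1 and R2 differed from naïve cells by 31.10 and 31.51 points. The pooled difference of 31.31 points was 18.85 without the second naïve library and 41.84 without the first. Its best distal region (chr6:84773215-84775177) had 16 tags in the first naïve library, 108 and 69 in R1 and 7 in the first R2 library.

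RUNX1, the runt factor known best from blood and also expressed in mesenchymal cells (chr21:34787801-36004667, minus strand), had 33 and 21 tags in its wider promoter region for naïve cells, 161 and 100 for R1, and 18 and 17 for R2. Over background these were 14.4 and 15.5, 20.3 and 18.4, and 21.2 and 18.9. On the log2 scale this region was 0.37 higher in R1 and 0.42 higher in R2. The medians over all regions with a peak in every library were 0.06 and 0.33. Side by side at the same start, 2 regions behaved differently. The wider one (chr21:34888471-34890588), to which those values belong, ranked 66.4 and 62.3 for naïve cells, 73.6 and 69.7 for R1, and 71.0 and 66.3 for R2. It was higher in R1, and in R2 one library lay just under the upper naïve one. The narrower one (chr21:34887940-34888391) lies 299 bp from the nearest RUNX1 start, over an annotated UTR. It held the best promoter peak of the first naïve library, with 38 tags. It ranked 75.7 and 44.5 for naïve cells, 21.4 and 25.6 for R1, and 47.5 and 62.1 for R2. Both R1 libraries lay below both naïve libraries there, and the R2 libraries lay between the naïve ones. The difference was -36.63 points in R1 and -5.29 in R2, and the difference between R1 and R2 was not tested.

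RUNX1 also held the only region of the 10 genes that ranked 20000 or better in both libraries of a culture with no peak elsewhere. The intronic site at chr21:35428470-35428866, whose sequence is shown above, lies 36463 bp from the nearest RUNX1 start. It had 84 and 61 tags in the R1 libraries, percentiles 94.1 and 93.8 of their lists, and no peak elsewhere. Its ranks of 19844 and 17814 were close to the limit, and at rank 50000 or better R1 had 4 such regions. Another of these, beside TWIST1 (chr7:19112253-19112887), had 78 and 55 tags in R1, at ranks 22438 and 21373. Scaled from the first R1 library, 24.2 and 14.3 tags would stand in the naïve libraries and 8.99 and 9.51 in R2, all above the lowest callable number. The R2 values were below the 10.4 tags that, scaled between the 2 R2 libraries, went without a peak at ZEB2. Of the regions of the 10 genes that ranked 20000 or better in both libraries of a culture, the intronic RUNX1 site was 1 of 11 in R1. Of all such R1 regions, 1.38% had no peak elsewhere. There were 0 of 6 in the naïve libraries (background 0.0857%) and 0 of 7 in R2 (background 0.387%). No region of the 10 genes had a peak in all 4 resistant and no naïve library, out of 12 with all 4 resistant peaks (background 3.39%). None had peaks in both naïve and no resistant library, out of 19 (background 1.23%). The best distal region of the RUNX1 window (chr21:36035084-36035922), over an annotated UTR of SETD4, had 13 tags in the first naïve library, 110 and 78 in R1, and 10 and 11 in R2.

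RUNX2, the runt factor of bone formation (chr6:45328157-45664349, plus strand), went the other way. Its promoter peak held 21 and 16 tags in the naïve libraries and 38 and 29 in R1, and there was none in R2. Over background these were 9.18 and 11.8 in the naïve libraries and 4.79 and 5.34 in R1, so both R1 libraries lay below both naïve ones. Scaled to R2, where 6 tags could be called, the R1 peaks correspond to between 4.07 and 4.8 tags and the naïve peaks to between 7.79 and 10.7. Whether a promoter peak of naïve strength would have been called in R2 cannot be decided from this. At ZEB2, a value of 10.4 scaled between the 2 R2 libraries went without a peak. The first R1 value comes from a neighbouring start, and in the region of the other values that library held 37 tags. The RUNX2 intron region at chr6:45445842-45446129, its best distal one, had 16 tags in the first naïve library and 31 and 24 in R1. The RUNX2 window held 1 region with a peak in every library, in an intron of RUNX2 at the start of SUPT3H. That region ranked 66.4 and 84.8 for naïve cells, 66.6 and 60.8 for R1, and 86.9 and 82.7 for R2, with overlapping groups.

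NOTCH2, the receptor (chr1:119911553-120100779, minus strand), had promoter peaks in the fewest libraries of the 10. A peak was called in R1 alone, with 39 and 33 tags, 4.91 and 6.07 times background, at percentiles 70.5 and 77.4. Scaled from the first R1 library, 11.2 tags would stand in the first naïve library, where 9 were callable, 6.63 in the second, where 7 were needed, and 4.18 and 4.41 in R2, where 6 were needed. From the second R1 library these were 13.9, 8.2, 5.17 and 5.46. Reads were filtered on mapping quality by the authors, and NOTCH2 has near-identical copies in the genome. The part of these copies in its low values was not tested. Of its 18 regions 17 were found in R1 alone. The exception, 52614 bp from the nearest NOTCH2 start (chr1:119870828-119871291), had 10 tags in the second naïve library and 74 and 30 in R1.

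**Figure D2:**
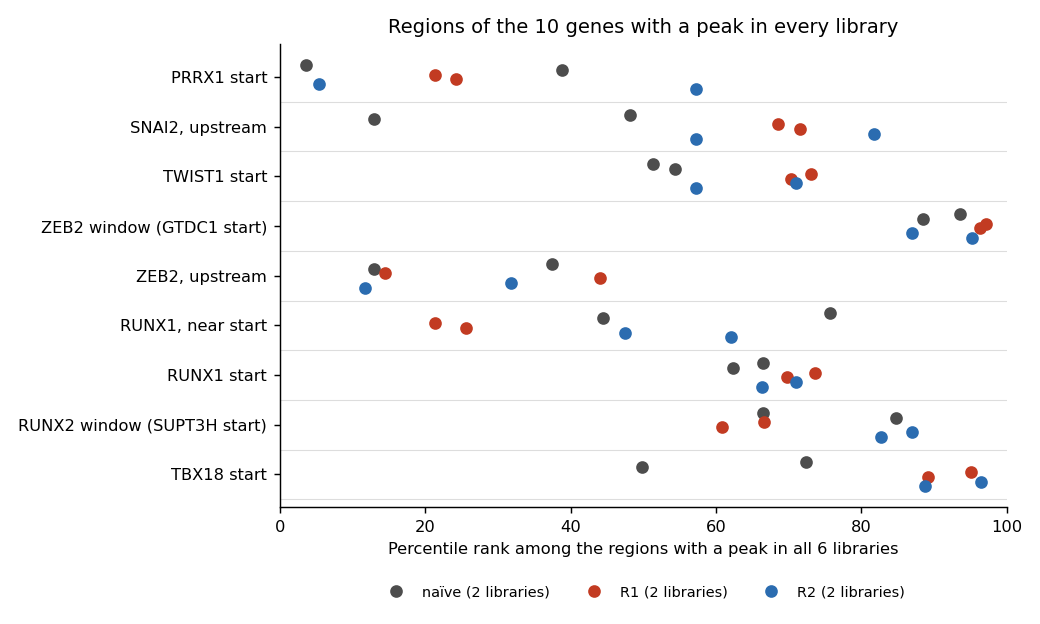
Percentile rank, among the 24147 regions with a peak in all 6 libraries, of the 9 such regions in the windows of the 10 genes. Each point is 1 library, with naïve in grey, R1 in red and R2 in blue. At TBX18, TWIST1 and the region upstream of SNAI2 the 4 resistant libraries lie above both naïve ones. At the narrower RUNX1 region the R1 libraries, at 21.4 and 25.6, lie below the other 4.

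Over the 9 regions with a peak in every library, 3 ranked higher in all 4 resistant libraries than in both naïve ones, against 12.7% of all such regions, and 0 ranked lower, against 14.9%. The 3 were TBX18, TWIST1 and the region upstream of SNAI2. In R1 alone 5 were higher (background 31.1%) and 1 lower (background 31.3%), and in R2 alone 3 were higher (background 21.1%) and 0 lower (background 23.9%). The median difference over the 9 regions was 5.81 percentile points, 5.74 in R1 and 9.18 in R2, and over all regions it was -0.27, 0.00 and -0.48. The median was 15.60 without the second naïve library, 9.96 without the first and 2.41 without the second R2 library. Without the first naïve library 5 of 10 regions were higher, against 23.9% of all, and without the second 6 of 11 were, against 23.8%. Without the first R2 library 7 of 12 were higher, against 17.9%, and without the second 4 of 12, against 17.8%. One region was lower without the second naïve library (26.6% of all) and 1 without the second R2 library (19.2%). TBX18, TWIST1 and the SNAI2 region were among the higher ones with each library left out in turn.

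Long stretches of chromosome shifted together between these cultures, so each region was set beside the other regions with a peak in every library within 5 Mb of its gene. Around TBX18 the 23 neighbouring regions had a median difference of 32.97 points, 37.53 in R1 and 22.43 in R2, and 14 of them (60.9%) were called higher. Pooled over R1 and R2, the TBX18 promoter differed from this median by -1.67. In R1 alone it lay below the median of its neighbours, and in R2 alone above it. Around SNAI2 the 22 neighbours had a median of 12.94 and 7 (31.8%) were higher, and the region upstream of SNAI2 exceeded the median by 26.28. Around TWIST1 the 38 neighbours had a median of 3.48, and its promoter lay 11.58 above it. Within 2 Mb, however, the 11 neighbours of TWIST1 had a median of 18.46, and its promoter lay 3.40 points below that, a difference of -3.40. RUNX2 sits in a stretch that went down, with a median of -12.97 over 108 neighbours, -22.33 in R1 and -0.85 in R2. The neighbours of PRRX1, ZEB1, ZEB2, RUNX1, NOTCH2 and MEOX2 had pooled medians between 0.10 and 2.45. By culture some were not flat. The medians were 5.98 in R1 and -4.85 in R2 at ZEB1, 7.47 and -6.93 at ZEB2, and 7.17 and -0.66 at NOTCH2. In R1 the GTDC1 start in the ZEB2 window, at 5.74, lay below that median of 7.47. Copy number of these stretches was not measured, and its part in the differences was not tested.

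**Figure D3:**
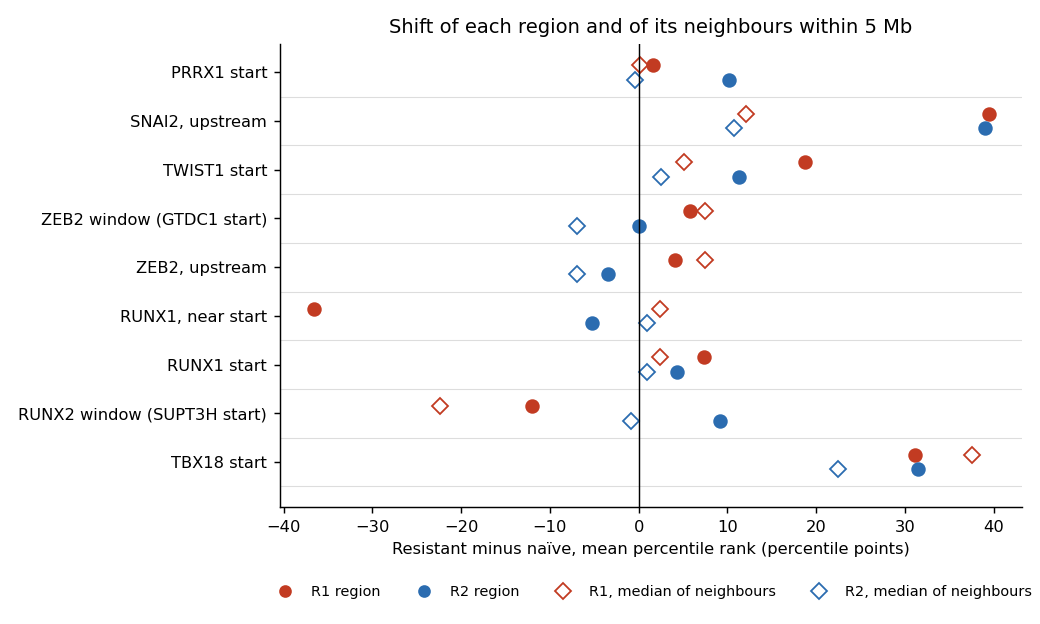
Difference in mean percentile rank from naïve cells for R1 (red) and R2 (blue), for the 9 regions (filled circles) and for the median of their neighbours within 5 Mb (open diamonds). In R1 TBX18, at 31.10, lay below its neighbours at 37.53, and in R2 it lay above its neighbours at 22.43. In R1 the region upstream of SNAI2, at 39.45, lay above its neighbours at 12.07.

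Since list length goes with depth, the windows were also compared on peaks of equal rank. Peaks ranked 20000 or better numbered 7 and 6 over the 10 windows for naïve cells, 11 and 13 for R1, and 9 and 12 for R2. Tied p-values share a rank, so these sets held between 20030 and 23539 peaks, the most in the first R2 library. RUNX1 was the 1 gene of 7 with such peaks whose count was higher in every resistant library, with 2 and 2 for naïve cells, 3 and 4 for R1, and 3 and 4 for R2. The same pattern held for 6.28% of gene windows, and 6.71% had fewer, which none of the 10 genes did. These shares cover windows of every length, and that of RUNX1 is the longest of the 10, at 1317 kb. At rank 50000 or better, in sets of 51536 to 59776 peaks, RUNX1 had 3 and 5 peaks for naïve cells, 10 and 9 for R1, and 8 and 9 for R2. RUNX2 had 3 and 5 for naïve cells, 1 and 1 for R1, and 2 and 1 for R2. These were 1 of 10 windows with more peaks (background 5.99%) and 1 of 10 with fewer (background 12.7%). RUNX1 and RUNX2 kept these calls with each library left out. Without the first naïve library SNAI2 also had more peaks, 2 windows in all, at both ranks. Without the first R2 library TBX18 joined RUNX1 at rank 20000 (2 windows) and TBX18 and MEOX2 did at rank 50000 (3 windows). SNAI2 joined it at rank 20000 without the second R2 library (2 windows), and TWIST1 did at rank 50000 without the second naïve library (2 windows). These counts were compared after the values had been seen.

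**Figure D4:**
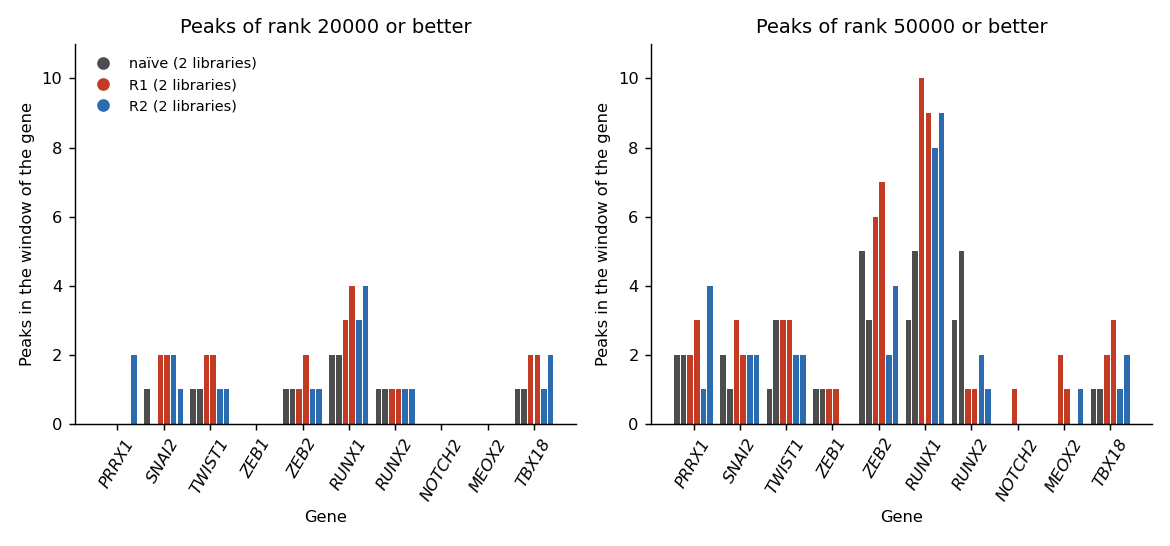
Number of peaks ranked 20000 or better (left) and 50000 or better (right) in the window of each gene, 1 bar per library, naïve in grey, R1 in red and R2 in blue. At rank 50000 RUNX1 had 8 to 10 peaks in the resistant libraries and 3 and 5 in the naïve libraries, and RUNX2 had 1 or 2 against 3 and 5.

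Motif letters were counted at the summits of the 10 genes and of all regions. Within 50 bp of the summits of the first R1 library, and on both strands, 48.7% of 199 distal regions held an E-box, CANNTG (Wilson 95% interval 41.9 to 55.6), against 51.5% of all distal regions. The form bound by SNAI and ZEB factors, CACCTG, which is also a CANNTG match, was in 16.1% (11.6 to 21.8), against 15.9%. The RUNX core TGTGGT was in 5.03% (2.75 to 9), against 8.56%, the T-box letters AGGTGT in 8.04%, against 7.45%, the homeobox core TAATTA in 1.01%, against 0.673%, and the TEAD core GGAATG in 4.52%, against 6.24%. At the 47 promoter regions, the AP-1 letters TGANTCA were in 8.51% (3.36 to 19.9), against 2.58% of all promoter regions, and CACCTG in 4.26% (1.17 to 14.2), against 13.9%. These were 4 and 2 regions, and neighbouring regions of 1 gene are not independent. GGGCGG was in 21.3% of the promoter regions, against 18.3%, and in 3.52% of the distal ones, against 4.88%. The median GC content was 56.4% in distal regions of the 10 genes and of the series, and 64.4% against 60.4% in promoter regions. A match is a description of the letters and says nothing of a bound factor.

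Promoters of related genes were read in the same way. Of 23 other factors of the mesenchymal program 22 had a promoter peak in all 6 libraries, and 12 of them ranked 20000 or better in all. ELK4, an ETS factor, had 79 and 58 tags for naïve cells, 271 and 173 for R1, and 46 and 33 for R2, and CREG1 was nearly as high in rank. GLIS3, a zinc finger factor, had peaks in R1 alone, with 54 and 37 tags. MEOX1, the paralogue of MEOX2, had a peak in every library, with 18 and 14 tags for naïve cells, 66 and 38 for R1, and 11 and 9 for R2.

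Of 10 partners and targets of the epithelial to mesenchymal transition, 8 had a promoter peak in all 6 libraries and 4 ranked 20000 or better in all. TGFBR1, a TGF-beta receptor, and SNAI1, the paralogue of SNAI2, had the best mean percentiles, 98.5 and 95.3. CDH1, the epithelial cadherin that these factors repress, had 14 and 13 tags for naïve cells, 49 and 30 for R1, none in the first R2 library and 8 in the second. CTNNB1, which encodes beta-catenin, had promoter peaks in 4 libraries. Of 9 genes of the Notch pathway 8 were open in all 6 libraries and 5 ranked 20000 or better in all. The targets HEY1 and HES1 had the best mean percentiles, 98.6 and 96.2, and NOTCH3 had 79 and the coactivator MAML2 71.3. Both RUNX partners, CBFB and RUNX3, had a promoter peak in all 6 libraries, and neither ranked 20000 or better in all.

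The adrenergic factors, the opposing state, had open promoters in the same cells. Of 13, 10 (76.9%) had a promoter peak in all 6 libraries, against 95.7% of the 23 other mesenchymal program factors and 40% of the 10 genes. These shares were not tested against each other. Of the 13, 6 ranked 20000 or better in all. KLF7 and TBX2 had the best mean percentiles, 98.6 and 98.2. TFAP2B had 33 and 32 tags in R1 alone. TFAP2B among the adrenergic factors, GLIS3 among the 23 other mesenchymal program factors, and NOTCH2 and MEOX2 among the 10 genes lacked a promoter peak in both naïve libraries. Accessible promoters are not a measure of expression.

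**Figure D5:**
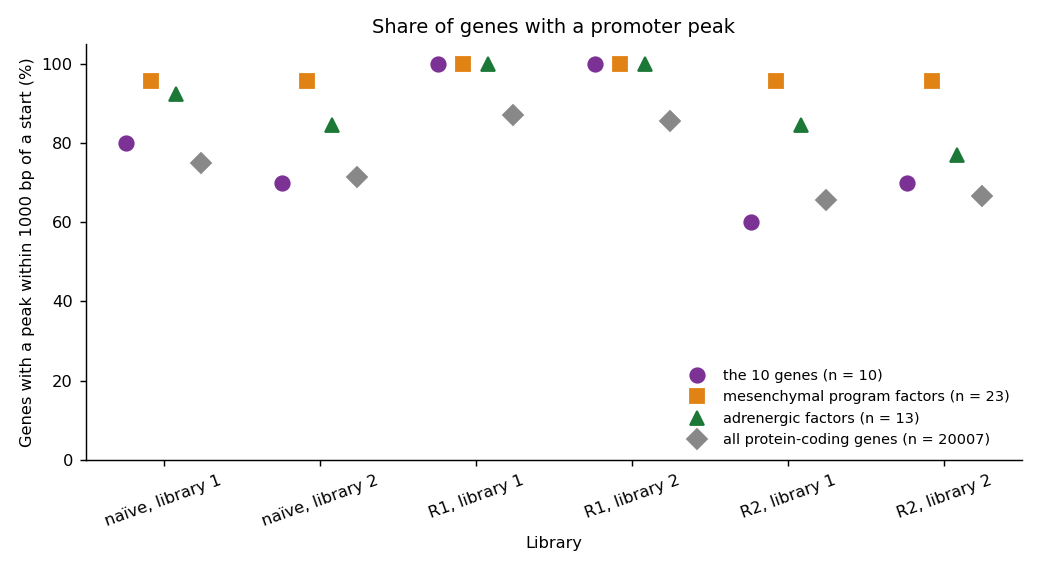
Percentage of genes with a promoter peak in each library, for the 10 genes (purple circles), the 23 other mesenchymal program factors (orange squares), the 13 adrenergic factors (green triangles) and all 20007 protein-coding genes (grey diamonds). The 10 genes stand at 60 to 80% outside R1 and at 100% in R1, below the adrenergic factors in all 4 libraries outside R1.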

How the data were processed

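By the methods and labels, the authors aligned reads with BWA 0.7.12-r1039, marked duplicates with Picard 1.65 and filtered on mapping quality with SAMtools 1.3.1. Reads on mitochondrial DNA were removed, cut positions were moved by +4 or -5 bp by strand, and MACS2 2.2.7.1 was run on every library alone (q 0.01, extension 200 bp, shift 100 bp). For each peak the deposited columns give a fold (ratio of peak to background), a −log10 p-value, a −log10 q-value and an integer score, the last not used. Sources name hg19 and hg38. On chromosome 17 peaks ran to 83247428 of the 83257441 bp of hg38, which was used.

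Each fold is tags plus 1 over the background rate plus 1, so rates and whole tags were recovered from the common step of the folds. Peaks sharing 1 base were joined, the best peak by p gave the value of a region, and ranks among the 24147 shared regions were compared as group means. The method was tested on simulated lists. All 10 genes are named with their promoter and best distal region, and other genes by the best and poorest promoter of a list. One gene that this rule names is not reported here. The genes, lists and motifs were chosen with earlier results of these data known. Tools were BEDTools 2.31.1, pysam 0.24.0, pandas 2.3.3, NumPy 2.4.6 and Python 3.11.15. Alternatives covered the q threshold, list length, windows, promoter distance, overlap, ranking, GC content, neighbours and each library left out. Reads were not used.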

Additional observations from a re-analysis of the deposited data

How the results depend on the processing

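Depth limits these results, since the lowest callable peak differed between libraries, and with 2 libraries per culture an exact permutation test cannot reach 0.05. No paired analysis was made, because the results come from no test and the labels do not say whether a replicate number marks a shared day. Taking off the median of the neighbours reversed the pooled TBX18 promoter difference, to -1.67 within 5 Mb and -1.67 within 2 Mb. It also reversed that of TWIST1, to -3.40 within 2 Mb. The neighbours themselves had shifted. Of 9 regions, 3 were higher in the resistant libraries, against 12.7% of all such regions. By percentile within the whole list 1 was higher, namely TBX18, against 4.87% of all. On that scale the median difference was 0.33, against 5.81. With tags over the background rate, an alternative chosen after seeing the data, 5 were higher, against 26.5% of all such regions. On this scale 0 were lower, against 3.17% of all. An overlap of a fraction of 0.5 of both peaks left 3 regions with a peak in every library. The mean number of peaks of rank 20000 or better was 6.5 per naïve library, 12 per R1 library and 10.5 per R2 library, at rank 10000 it was 3.5, 6.5 and 6.5, and at rank 50000 it was 19.5, 30.5 and 21.5. Regions confined to R1 numbered 0 at rank 10000 and 4 at rank 50000. With each library left out in turn, higher regions numbered 3 to 7, lower regions 0 to 1, and the median difference ran from 2.41 to 15.60. Over all alternatives, 77 values of these counts and medians stayed within 1.5 times (counts) or within the spread between libraries (medians), and 17 did not. The spread was 7.73 points, wider than the median difference of 5.81 itself, so the medians of 0.33 and 2.41 are among the 77.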
